A study of Mus musculus with 4 samples.

Results

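The 36 genes described here have roles in the motile axoneme, the microtubule core of the sperm tail, or in ciliary transport. They were chosen by symbol from the 26068 entries of the deposited table that name a gene. They are 5 dynein arm chains (Dnaic and Dnal symbols), 3 genes for dynein arm assembly and docking (Lrrc50, Lrrc6 and Armc4), the central pair gene Hydin, 7 radial spoke genes (Rsph), 12 genes of intraflagellar transport (IFT), and 8 Bardet-Biedl genes (Bbs). The symbol pattern for dynein heavy chains, Dnah and a number, matched 0 entries, because the table calls these genes Dnahc. The 14 Dnahc entries are therefore described beside the members and counted apart from them. The study sequenced RNA of whole testes taken from male B6D2F1 mice 24 days old. There were 2 libraries from Adad2-knockout homozygous testes and 2 from wild type testes. The labels do not say how the Adad2 gene was disrupted, nor whether the 2 libraries of a group came from separate animals, so the p-values reflect the spread between libraries and that spread could be technical.

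A motile axoneme has outer doublet microtubules around a central pair. Inner and outer dynein arms on the doublets drive sliding. Radial spokes pass signals between the central pair and the arms, and docking complexes fix the outer arms in place. Arms are put together in the cytoplasm by assembly factors before they reach the axoneme. IFT trains, moved by kinesin-2 and dynein-2, carry parts along growing cilia, and the BBSome is a coat complex that moves membrane proteins in and out of them. In the mouse testis, transcripts of many axonemal genes appear in spermatocytes, before the tail grows in spermatids.

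Levels are given in RPKM, read numbers corrected for gene length and for sequencing depth, and changes as knockout minus wild type on the log2 RPKM scale. A gene is called when its limma p, adjusted by the Benjamini-Hochberg method over all 13414 genes with a mean log2 RPKM of at least 0 (a geometric mean of 1 RPKM), is under 0.05. Depth, estimated from the smallest steps between low values, came to 32700000 and 28900000 reads for the knockout libraries and 29700000 and 36700000 for the wild type libraries. A lone read on 1 kb of exon corresponds to 0.0272 to 0.0346 RPKM. Adad2 itself stood at 13.2 and 9.86 RPKM in the knockout libraries, against 25.2 and 22.2 RPKM in the wild type libraries (log2 change -1.05, SE 0.16, limma adjusted p = 0.00604). The adjusted p was 0.143 when wild type replicate 1 was left out and 0.0838 when wild type replicate 2 was. Markers of late germ cells differed between the groups. Over 8 elongating spermatid markers the summed level was 100 and 60.6 RPKM in the knockout libraries, against 911 and 861 RPKM in the wild type libraries. All 8 were lower in both knockout libraries than in both wild type libraries, and 7 of the 8 passed the test. The 1 that did not, Tnp2, was at 9.67 and 2.35 RPKM in the knockout libraries, against 211 and 191 RPKM in the wild type libraries (log2 change -5.39, limma adjusted p = 0.0761). Over 8 round spermatid markers it was 491 and 434 RPKM in the knockout libraries and 605 and 621 RPKM in the wild type libraries, with 5 of 8 lower by the test and a median log2 change of -1.80. Most of that sum was Dkkl1, at 360 to 430 RPKM over the 4 libraries (log2 change -0.12, adjusted p = 0.512). Over 8 pachytene spermatocyte markers the sum was 490 and 480 RPKM in the knockout libraries and 398 and 463 RPKM in the wild type libraries, with 0 called by limma (3 at an unadjusted p under 0.05), and 0 of the 6 markers of meiotic division were called (3 at an unadjusted p under 0.05).

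Most axonemal and transport genes were at similar levels in knockout and wild type testes, and the 2 members that fell were Armc4 and Bbs5. Of the 36 members, 35 were tested, 2 were lower in the knockout, 0 were higher and 33 were not called. The share of members called lower was 5.71%, beside 7.15% of all genes tested, and for higher calls it was 0 of 35, beside 1.22%. For calls in either direction the share over all genes was 8.36%. At an unadjusted limma p under 0.05 there were 3 lower and 6 higher members, 9 of 35, beside 27.0% of all genes. The median log2 change of the tested members was 0.07, beside 0.14 over all genes tested, and 33 of the 35 changed by less than 0.5, as 88.5% of all genes did. The change was above 0 in 23 members (65.7%), beside 71.8% of all genes, and at most -1 in 0 members, beside 5.61%. The groups did not overlap in 23 members (65.7%), beside 63.2% of all genes tested. Of these 6 were lower in the knockout, beside 16.8% of all genes, and 17 were higher, beside 46.4%. The members' shares of calls and of groups that do not overlap were thus near those of all genes. The 95% confidence intervals of the 33 uncalled members lay between -0.57 and 0.73. Without wild type replicate 1 limma called 0 of all genes (2357 at an unadjusted p under 0.05), and 0 members were called without wild type replicate 1 or 2.

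**Figure D1:**
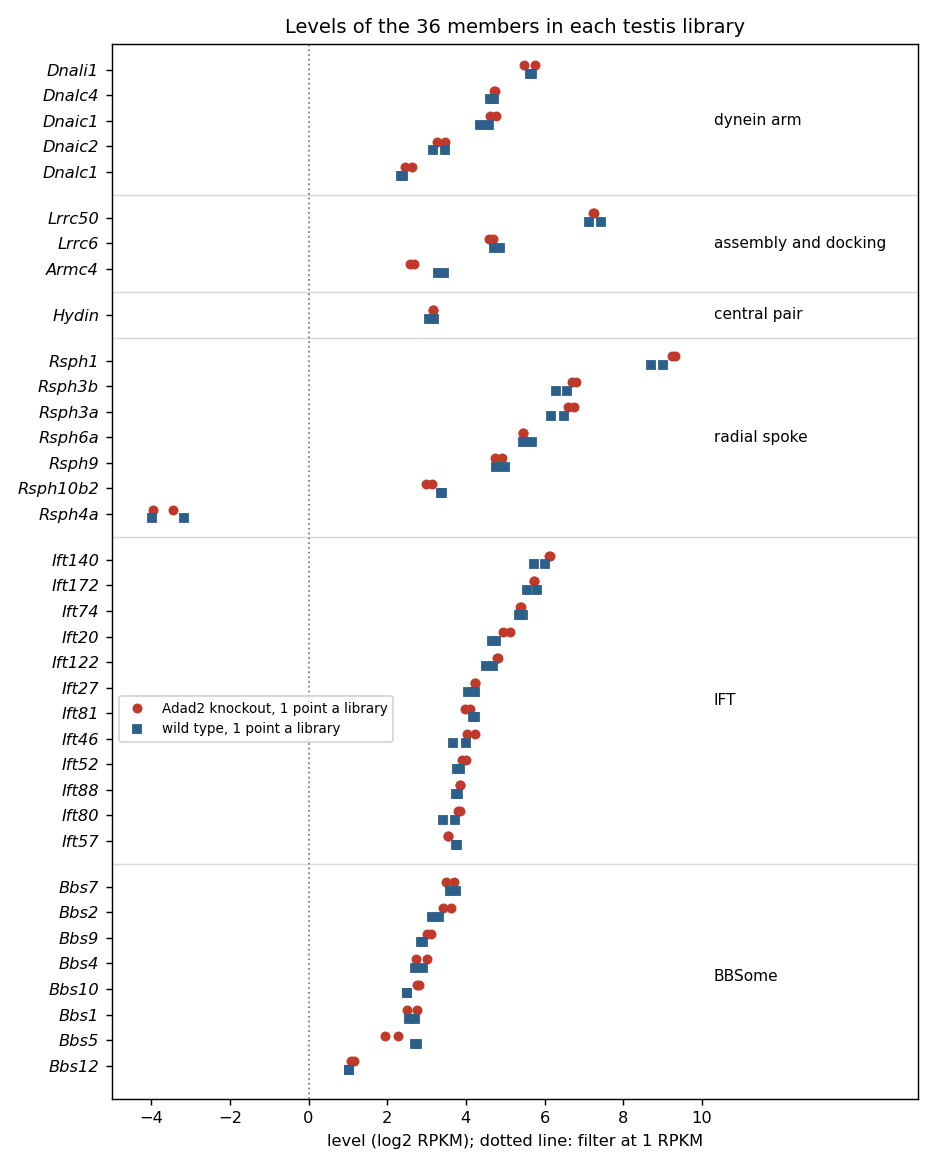
Level of each of the 36 members on the log2 RPKM axis, grouped by class, with a red circle for each Adad2-knockout library above a blue square for each wild type library. Levels run from Rsph4a, left of the filter line at 1 RPKM, to Rsph1 at 420 to 635 RPKM. Both red circles lie left of both blue squares in 6 members, Armc4 and Bbs5 among them.

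Of the dynein arm chains, 5 were tested and 0 were called by limma, also with 0 at an unadjusted p under 0.05. Dnali1, a light intermediate chain of the inner arms, had the highest level, 54.4 and 44.3 RPKM in the knockout libraries against 50 and 50.9 RPKM in the wild type libraries. The knockout values lay on both sides of the wild type values. Dnaic1, an intermediate chain of the outer arm that mutates in human ciliary dyskinesia, was at 27.1 and 24.5 RPKM in the knockout libraries and 20.5 and 23.9 RPKM in the wild type libraries. Its log2 change of 0.22 had a 95% confidence interval of -0.06 to 0.49 (adjusted p = 0.258). Dnaic2, its partner chain, was at 11.1 and 9.68 RPKM in the knockout libraries and 8.98 and 11.1 RPKM in the wild type libraries. The groups overlapped. Dnalc1, a light chain of the outer arm, was at 6.15 and 5.47 RPKM in the knockout libraries and 5.27 and 5.05 RPKM in the wild type libraries, and Dnalc4, a further light chain, at 26.2 and 26.7 RPKM in the knockout libraries and 24.5 and 26.2 RPKM in the wild type libraries. Both knockout libraries were above both wild type libraries, by little, in Dnaic1, Dnalc1 and Dnalc4. This order held for 46.4% of all genes tested. The 95% confidence intervals of all 5 changes included 0. The median log2 change of the 5 chains was 0.06, and between 0.01 and 0.15 when each library was left out in turn.

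Among the heavy chains, the motor subunits themselves, Dnahc3 fell and Dnahc2 rose. Of 14 entries 11 were tested, 1 was lower, 1 was higher and 9 were not called. The share called lower was 9.09%, beside 7.15% of all genes tested, and 1.22% of all genes were called higher. The median log2 change was 0.10, beside 0.14 over all genes tested. Dnahc3, an inner arm heavy chain, was at 1.35 and 0.901 RPKM in the knockout libraries, against 6.95 and 5.06 RPKM in the wild type libraries. Both knockout libraries were far below both wild type libraries, at an estimated 631 and 372 reads against 2960 and 2660. The level was 5.38-fold lower (log2 change -2.43, SE 0.25, 95% confidence interval -3.01 to -1.84, limma adjusted p = 0.00166). With wild type replicate 1 left out the adjusted p was 0.0745. With a filter at a mean log2 RPKM of 2 the gene was not tested. In mm9 Dnahc3 (ENSMUSG00000052273) is a minus-strand gene of chromosome 7, start 127066231 and end 127238691, and no other entry of the table overlaps it. Dnahc2, another inner arm heavy chain, was at 19.4 and 17.2 RPKM in the knockout libraries and 13.1 and 13.5 RPKM in the wild type libraries, 1.37-fold higher (log2 change 0.46, SE 0.11, adjusted p = 0.0372). This call is weak. It was lost without knockout replicate 1 (adjusted p = 0.12), without wild type replicate 1 (0.226) or 2 (0.166), without a filter (0.0969), and in limma without trend and robust estimation (0.0894). The entry 6030455H03Rik lies on the other strand over 5129 bases of the Dnahc2 locus, and whether reads were told apart by strand is not given in the sources used here.

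The other inner arm heavy chains were not called. Dnahc1, whose loss gives short and irregular sperm tails in men, was at 16.7 and 17.3 RPKM in the knockout libraries and 14.3 and 16.3 RPKM in the wild type libraries. Dnahc6 was at 8.78 and 8.22 RPKM in the knockout libraries and 7.64 and 8.28 RPKM in the wild type libraries. Dnahc10 was at 7.11 and 6.31 RPKM in the knockout libraries and 6.45 and 6.60 RPKM in the wild type libraries. These are close values with groups that overlap for Dnahc6 and Dnahc10. Dnahc7a, Dnahc7b and Dnahc7c are related copies that may share reads, and their log2 changes were 0.09, 0.23 and 0.39, none called. The log2 change of Dnahc14 was -0.03 (95% confidence interval -0.34 to 0.28).

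Outer arm heavy chains come in paired forms, of which Dnahc8 and Dnahc17 are known from sperm tails and Dnahc5, Dnahc9 and Dnahc11 from the cilia of airways and the embryonic node. In these testes Dnahc8 was at 64.5 and 74.3 RPKM in the knockout libraries and 56.5 and 74.5 RPKM in the wild type libraries. Its counterpart Dnahc5 was at 0.0563 and 0.0282 RPKM in the knockout libraries and 0.146 and 0.078 RPKM in the wild type libraries. The level of Dnahc8 was thus 1150 and 2630 times that of Dnahc5 in the knockout libraries, and 387 and 955 times in the wild type libraries. Dnahc8 exceeded its paralog by far in each library. Dnahc5 rested on an estimated 28.8 and 12.8 reads in the knockout libraries and 67.9 and 44.8 in the wild type libraries, and was below the filter and not tested. Dnahc17 was at 25.6 and 28.3 RPKM in the knockout libraries and 22.4 and 28.0 RPKM in the wild type libraries. Dnahc9 was at 0.135 and 0.164 RPKM in the knockout libraries and 0.312 and 0.152 RPKM in the wild type libraries. Dnahc17 was thus the main form in every library. Dnahc11, whose range was 0.185 to 0.272 RPKM over the 4 libraries, was below the filter, as Dnahc9 was. Neither Dnahc8 (adjusted p = 0.686) nor Dnahc17 (adjusted p = 0.614) was called, with log2 changes of 0.09 (95% confidence interval -0.26 to 0.45) and 0.10 (-0.20 to 0.40). The radial spokes showed the same order of paralogs. Rsph6a, the spoke head protein of sperm, was at 44.1 and 43.3 RPKM in the knockout libraries and 43.7 and 51.5 RPKM in the wild type libraries. Rsph4a, its relative in airway cilia, was at 0.0914 and 0.0651 RPKM in the knockout libraries and 0.0634 and 0.111 RPKM in the wild type libraries. Rsph4a is the member that was not tested. Of 11 markers of the epithelium of rete testis and efferent duct, which holds multiciliated cells, 3 were tested and 0 called by limma, with 1 at an unadjusted p under 0.05. The summed level of all 11 was 11.8 and 13.3 RPKM in the knockout libraries and 14.2 and 14.5 RPKM in the wild type libraries. In every library most of this sum was Epcam, at 8.26 and 9.44 RPKM in the knockout libraries (log2 change -0.26, limma adjusted p = 0.173). Epcam was also the marker with an unadjusted p under 0.05. The sum therefore says little about the other markers. Of the multiciliated cell regulators among the 11 markers, Mcidas (listed as Gm6320) and Gmnc (listed as Gm606) were at most 0.046 RPKM in any library. Ccno, another of them, was higher, at 1.04 and 1.34 RPKM in the knockout libraries and 1.08 and 1.47 RPKM in the wild type libraries.

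**Figure D2:**
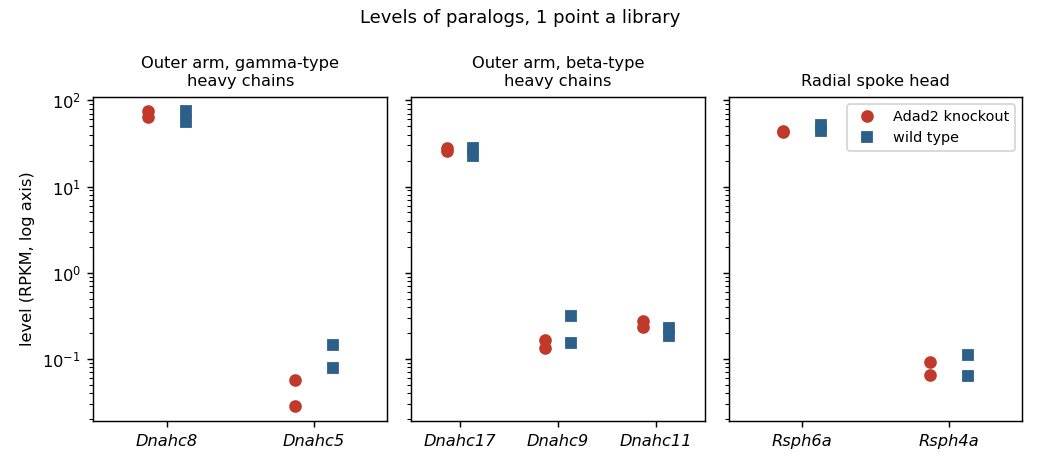
Level in RPKM on a log axis of outer arm heavy chains and spoke head genes with their paralogs, with red circles for Adad2-knockout libraries left of blue squares for wild type libraries. Dnahc8, Dnahc17 and Rsph6a lie between 22.4 and 74.5 RPKM in all 4 libraries and their paralogs below 0.32 RPKM.

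Of the genes for dynein arm assembly and docking, Armc4 fell and the other 2 were not called. Armc4, a part of the docking complex of the outer arm, was at 5.98 and 6.35 RPKM in the knockout libraries, against 9.84 and 10.9 RPKM in the wild type libraries. The groups were well apart, with little spread within either. The log2 values averaged 2.62 ± 0.06 in the knockout and 3.37 ± 0.10 in wild type (SD, n = 2 each), a log2 change of -0.75 (SE 0.11, 95% confidence interval -1.0 to -0.50, limma adjusted p = 0.00387). In mm9 Armc4 (ENSMUSG00000061802) is a minus-strand gene of chromosome 18, start 7088231 and end 7297899. The estimated reads were at least 753 in every library. Of the alternatives run, those leaving out wild type replicate 1 (adjusted p = 0.0783) or wild type replicate 2 (0.0882) did not call it. Lrrc50, an assembly factor also known as Dnaaf1, had the second highest level of the members, at 150 and 153 RPKM in the knockout libraries and 139 and 172 RPKM in the wild type libraries. It ends 14.3 kb upstream of Adad2 on the same strand of chromosome 8, and its log2 change was -0.03 (95% confidence interval -0.33 to 0.27, adjusted p = 0.885). Lrrc6, another assembly factor, was at 25.8 and 24.0 RPKM in the knockout libraries and 26.1 and 29.3 RPKM in the wild type libraries (adjusted p = 0.366). Hydin, a very large protein of the central pair, was at 8.94 and 8.98 RPKM in the knockout libraries and 8.43 and 9.10 RPKM in the wild type libraries. Its log2 change was 0.03 (95% confidence interval -0.20 to 0.27). In whole-testis RNA, fewer cells of a type and less RNA per cell cannot be told apart.

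The radial spoke genes held the highest level of any member, and 0 of 6 tested were called by limma. At an unadjusted limma p under 0.05 there were 1 lower and 3 higher, beside 27.0% of all genes in either direction. Rsph1, a spoke head protein, was at 635 and 601 RPKM in the knockout libraries and 420 and 513 RPKM in the wild type libraries. Both knockout libraries were above both wild type libraries, and the log2 change was 0.41 (SE 0.14, 95% confidence interval 0.10 to 0.73, adjusted p = 0.115). After quantile normalization it was past the threshold, at a log2 change of 0.33 (adjusted p = 0.00448). Rsph3a and Rsph3b, copies of the gene for a spoke stalk protein, were at 107 and 96.9 RPKM and at 111 and 104 RPKM in the knockout libraries. In the wild type libraries Rsph3a was at 71.3 and 90.3 RPKM and Rsph3b at 78.2 and 95.2 RPKM. Their log2 changes were 0.34 (adjusted p = 0.164) and 0.31 (adjusted p = 0.167), and Rsph3b was past the threshold after quantile normalization (0.0471). The copies share 74.0% of the 50-base words of the longest Rsph3a transcript, so reads may be split between them and their values are not independent. Rsph10b2, a spoke head gene, was at 8.77 and 7.87 RPKM in the knockout libraries and 10.4 and 10.4 RPKM in the wild type libraries (log2 change -0.32, adjusted p = 0.111), and other entries overlap it. Rsph9, also of the spoke head, was at 30.2 and 26.6 RPKM in the knockout libraries and 27.3 and 31.7 RPKM in the wild type libraries. The groups overlapped for Rsph9 and Rsph6a, whose log2 changes were -0.05 and -0.12. The median log2 change of the class was 0.13, and between 0.0 and 0.25 when each library was left out in turn.

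No IFT gene passed the test. Of 12 tested, 0 were called by limma and 1 had an unadjusted p under 0.05, with changes between -0.22 and 0.32 and a median of 0.12. The IFT-A complex carries returning trains. Its member Ift140 had the highest level of the class, at 68.6 and 70.7 RPKM in the knockout libraries and 53.0 and 63.9 RPKM in the wild type libraries, a log2 change of 0.26 (95% confidence interval -0.02 to 0.54). Ift122, of the same complex, was at 27.5 and 28.0 RPKM in the knockout libraries and 23.0 and 25.8 RPKM in the wild type libraries. Both knockout libraries were above both wild type libraries in each gene, as they were for 46.4% of all genes tested. The IFT-B complex carries outgoing trains. Ift172, its largest subunit, was at 53.3 and 53.1 RPKM in the knockout libraries and 46.5 and 55.6 RPKM in the wild type libraries. Ift20, which also acts at the Golgi and is needed for sperm formation in mice, had the smallest p of the class. It was at 35.0 and 30.6 RPKM in the knockout libraries and 25.5 and 27.0 RPKM in the wild type libraries (log2 change 0.32, SE 0.11, adjusted p = 0.126). Ift57 had the next smallest p and the opposite direction, at 11.7 and 11.6 RPKM in the knockout libraries and 13.8 and 13.5 RPKM in the wild type libraries (log2 change -0.22, SE 0.10, adjusted p = 0.19). Ift74 and Ift81, which bind each other in the tubulin-carrying core, had log2 changes of -0.02 and -0.15. Ift88, the subunit affected in the orpk mouse, was at 14.3 and 14.5 RPKM in the knockout libraries and 13.3 and 13.8 RPKM in the wild type libraries. For the other IFT-B members the log2 changes were 0.08 for Ift27, 0.15 for Ift52, 0.25 for Ift80 and 0.30 for Ift46.

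**Figure D3:**
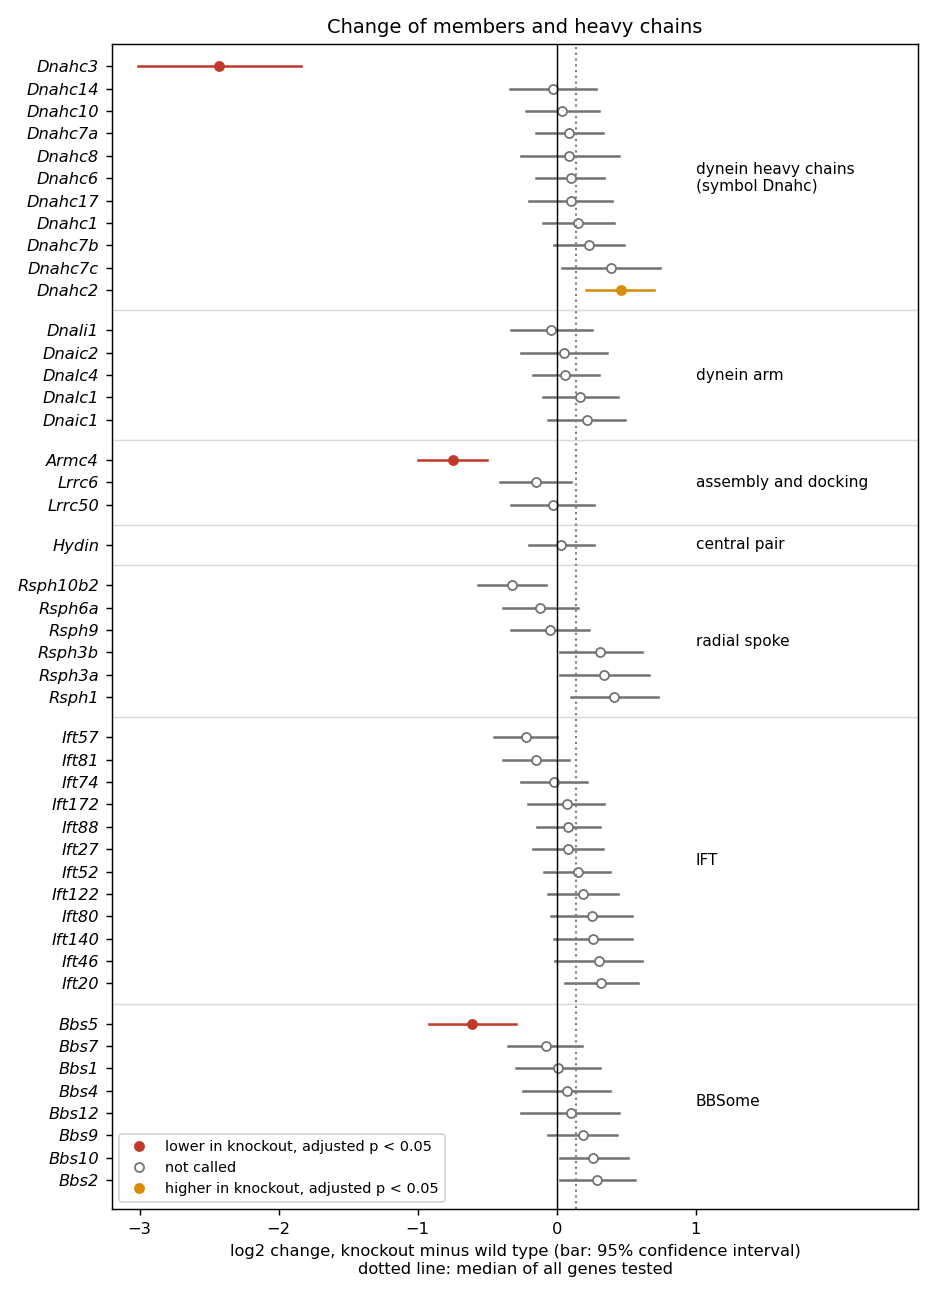
Log2 change, knockout minus wild type, of each tested member and dynein heavy chain with its 95% confidence interval, by class; filled points passed an adjusted p of 0.05 and the dotted line is the median of all genes tested, 0.14. Armc4, Bbs5 and Dnahc3 lie left of 0, Dnahc2 lies right of it, and the open points are genes not called.

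Bbs5 fell, while the other BBSome members did not pass the test. Bbs5, a subunit that binds membrane lipids, was at 4.85 and 3.87 RPKM in the knockout libraries, against 6.48 and 6.72 RPKM in the wild type libraries. The knockout libraries were both lower, and were further from each other than the wild type libraries were. The log2 values averaged 2.12 ± 0.23 in the knockout and 2.72 ± 0.04 in wild type (SD, n = 2 each), a log2 change of -0.61 (SE 0.14, 95% confidence interval -0.92 to -0.29, limma adjusted p = 0.0313). The call was lost without knockout replicate 2 (adjusted p = 0.0616), without wild type replicate 1 (0.233) or 2 (0.219), without a filter (0.101), and in limma without trend and robust estimation (0.0668). In mm9 Bbs5 (ENSMUSG00000063145) is a plus-strand gene of chromosome 2, start 69485228 and end 69505628. At an unadjusted limma p under 0.05 the 8 genes of the class held 1 lower and 2 higher, beside 27.0% of all genes in either direction. The higher ones were Bbs2 and Bbs10. Bbs7 was at 12.9 and 11.3 RPKM in the knockout libraries and 12.1 and 13.4 RPKM in the wild type libraries, and Bbs2 at 12.4 and 10.7 RPKM in the knockout libraries and 9.90 and 8.90 RPKM in the wild type libraries. Bbs2 and Bbs7 bind each other in the complex, and their log2 changes were 0.29 (adjusted p = 0.163) and -0.08 (adjusted p = 0.634). Bbs9 was at 8.68 and 8.13 RPKM in the knockout libraries and 7.22 and 7.55 RPKM in the wild type libraries. Bbs1 and Bbs4 had log2 changes of 0.01 and 0.07, with groups that overlapped. Bbs10 and Bbs12 are chaperonin-like proteins that help to build the complex. Bbs10 was at 6.71 and 6.94 RPKM in the knockout libraries and 5.69 and 5.68 RPKM in the wild type libraries (log2 change 0.26, adjusted p = 0.165). Bbs12 had the lowest level of the tested members, 2.02 to 2.23 RPKM over the 4 libraries, and lies inside the span of the entry Fgf2.

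Upstream sequence was compared because RFX factors act on ciliary genes through a motif called the X-box. RefSeq (GRCm38.p6) promoters were matched by symbol for 27 of the 36 members. In the 250 bases before the start site, the X-box parts GTTGCC and GGNAAC, 0 to 3 bases apart on either strand, were present in 2 of the 27 (7.41%), beside 0.457% of all 32851 promoters in the table. These were Bbs7, with a match 121 bases before the start, and Ift57, with a match 60 bases before it, and neither gene was called. The windows of the 11 matched heavy chains held 0 matches of the X-box. The core TGACG of the cAMP response element, the motif of Crem, was present on either strand in 6 of 27 members (22.2%), beside 17.8% of all promoters. Bbs5 holds it once, 48 bases before the start. The other holders were Bbs12 and Ift20 with 1 match each, and Ift57, Ift140 and Ift172 with 2 each. None of these others was called. The forkhead motif GTAAACA, on either strand, was present in 0 of 27, beside 3.17%. Of the 11 heavy chains, 1 held the forkhead motif (9.09%), which was Dnahc17 with a match 201 bases before the start, and 1 held TGACG (9.09%), which was Dnahc6. Armc4, which also fell, was not among the members with a match of these motifs, and its window is not shown. A member without a matched promoter could have no match. Shown are the windows of Bbs5, because it fell and holds TGACG, and of Bbs7 and Ift57, because they hold the X-box. TGACG is in capitals for Bbs5 and the X-box for the others. The windows lie at chr2:69646921-69647170 on the plus strand, chr3:36613390-36613639 on the minus strand and chr16:49699044-49699293 on the plus strand in GRCm38.
Bbs5: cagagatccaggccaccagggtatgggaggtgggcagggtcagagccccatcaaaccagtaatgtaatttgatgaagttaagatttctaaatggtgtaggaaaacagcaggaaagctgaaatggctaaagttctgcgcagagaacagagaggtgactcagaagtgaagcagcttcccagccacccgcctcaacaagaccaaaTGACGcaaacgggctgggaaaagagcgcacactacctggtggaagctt
Bbs7: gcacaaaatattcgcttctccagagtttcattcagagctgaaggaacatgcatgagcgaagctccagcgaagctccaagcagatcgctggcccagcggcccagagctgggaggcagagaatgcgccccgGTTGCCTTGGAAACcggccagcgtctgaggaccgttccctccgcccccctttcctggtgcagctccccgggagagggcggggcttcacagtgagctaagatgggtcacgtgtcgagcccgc
Ift57: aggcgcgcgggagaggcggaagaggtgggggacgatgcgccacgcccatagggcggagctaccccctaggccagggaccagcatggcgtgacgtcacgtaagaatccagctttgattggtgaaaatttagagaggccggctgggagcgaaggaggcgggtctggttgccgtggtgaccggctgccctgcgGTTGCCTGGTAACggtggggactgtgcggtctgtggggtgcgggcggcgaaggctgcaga
The letters match a motif and do not show that a factor binds there.

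Genes that work beside the members were taken from lists by role. Of 92 tested list genes other than heavy chains and members, 10 were lower (10.9%, beside 7.15% of all genes called lower and 8.36% called in either direction) and 0 higher by limma. At an unadjusted limma p under 0.05, 16 were lower and 3 higher, beside 1519 lower and 2097 higher of all 13414 genes tested. The median log2 change was 0.01, beside 0.14 over all genes tested. Whether the lists differ from other genes was not tested. The IFT motors included 3 of the 10 genes called lower. Of 10 tested motor genes, 3 were lower, while of 11 further IFT particle subunits 0 were called and 1, Ttc26, had an unadjusted p under 0.05 (log2 change -0.38, adjusted p = 0.0963, and 0.0362 without knockout replicate 2). Ttc30a2, a further subunit, had a log2 change of 0.21 (adjusted p = 0.274). Kif17, a kinesin-2 motor, was at 7.80 and 6.80 RPKM in the knockout libraries, against 22.0 and 19.1 RPKM in the wild type libraries (log2 change -1.49, SE 0.12, limma adjusted p = 0.000278). Kifap3, the adaptor of the other kinesin-2, was at 14.2 and 14.8 RPKM in the knockout libraries and 23.8 and 23.6 RPKM in the wild type libraries. Kifap3 spread little within either group. Wdr34, an intermediate chain of dynein-2, was at 15.0 and 13.5 RPKM in the knockout libraries and 21 and 25.8 RPKM in the wild type libraries. Both had a log2 change of -0.71, with adjusted p = 0.00308 for Kifap3 and 0.0105 for Wdr34. Whether motors and particle subunits differ was not tested. Without wild type replicate 1 the adjusted p was 0.0535 for Kif17, 0.0783 for Kifap3 and 0.0737 for Wdr34, and without wild type replicate 2 it was 0.0574 for Kifap3 and 0.118 for Wdr34. Without a filter it was 0.0512 for Wdr34.

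The other called list genes belong to docking, to the nexin-dynein regulatory complex that ties the doublets together, to the spoke neck, and to a list of transcription factors that includes Crem. Of 6 docking and ruler genes 1 was lower (16.7%, beside 7.15% of all genes tested). This was Ccdc63, a docking protein of sperm tails, at 7.91 and 6.09 RPKM in the knockout libraries, against 22.6 and 18.4 RPKM in the wild type libraries (log2 change -1.55, SE 0.16, limma adjusted p = 0.00144). Of 9 genes of the regulatory complex 2 were lower (22.2%, beside 7.15% of all genes tested). Fbxl13 was at 4.74 and 3.23 RPKM in the knockout libraries, against 13.8 and 12.0 RPKM in the wild type libraries, and Iqca at 1.29 and 0.765 RPKM in the knockout libraries, against 3.72 and 2.94 RPKM in the wild type libraries. Their log2 changes were -1.72 (adjusted p = 0.00281) and -1.74 (adjusted p = 0.00934). Of 9 further spoke genes tested, 1 was called lower (11.1%, beside 7.15% of all genes tested). At an unadjusted limma p under 0.05, 4 were lower and 0 higher. The log2 change was below 0 in 8 and above 0 in 1, with a median of -0.23, beside 0.14 over all genes tested. Both knockout libraries were below both wild type libraries in 7, beside 16.8% of all genes tested. The called gene was Dnajb13, a chaperone-like protein of the spoke. It was at 31.3 and 25.0 RPKM in the knockout libraries and 50.5 and 48.5 RPKM in the wild type libraries (limma adjusted p = 0.00549). Morn3, in that list, was at 4.08 and 1.76 RPKM in the knockout libraries and 19.5 and 17.0 RPKM in the wild type libraries. Its knockout libraries were far apart, and it missed the threshold (log2 change -2.77, SE 0.46, adjusted p = 0.055). It passed without a filter (0.0484), with log2(RPKM + 1) (0.0122), after quantile normalization (0.0247), in limma without trend and robust estimation (0.00861), and with either knockout library left out. Dydc2, also in that list, was below the filter and not tested, at 0.523 and 0.135 RPKM in the knockout libraries, against 1.36 and 1.33 RPKM in the wild type libraries. Of 8 transcription factors listed, 7 were tested, as Myb was below the filter. Of the 7 tested, 3 were lower (42.9%, beside 7.15% of all genes tested). Their log2 changes were -1.03 for Rfx1 (limma adjusted p = 0.00165), -0.53 for Foxj1 (0.0291) and -0.46 for Crem (0.0313). Rfx2, the RFX factor known for its part in mouse spermiogenesis, was not called (log2 change -0.11, adjusted p = 0.553), and was named after its values were seen. Without wild type replicate 1 all of these missed the threshold, with adjusted p from 0.0719 for Ccdc63 to 0.225 for Foxj1. Without wild type replicate 2 the adjusted p was 0.0568 for Fbxl13, 0.102 for Iqca, 0.094 for Dnajb13, 0.0508 for Rfx1, 0.0907 for Foxj1 and 0.18 for Crem. Iqca (0.0538), Foxj1 (0.0907) and Crem (0.0823) missed it without a filter, as did Foxj1 (0.0786) and Crem (0.0794) without trend and robust estimation, and Crem without knockout replicate 2 (0.0845).

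The remaining lists had 0 called genes by limma among those tested. They were 11 dynein arm assembly factors, among them Lrrc50, with 2 at an unadjusted p under 0.05, 7 central pair genes with 0, 8 BBSome subunits and partners with 1, 10 of 12 shared dynein light chains with 1, and 5 subunits of cytoplasmic dynein with 1. Of the 2 light chain entries below the filter, Tctex1d1 was at 0.418 and 0.374 RPKM in the knockout libraries, against 2.64 and 2.42 RPKM in the wild type libraries, an untested log2 change of -2.68. The groups were well apart, at an estimated 39.9 and 31.6 reads in the knockout libraries and 229 and 259 in the wild type libraries. The genes with the smallest p in the assembly list were Ccdc103, with a log2 change of -0.35 (adjusted p = 0.133, and 0.0174 without knockout replicate 1), and 6030429G01Rik, the entry of Dnaaf3, with -0.31 (0.112). In the central pair list they were Ccdc108 at 0.34 (0.244, and 0.0203 without knockout replicate 2) and Spag16 at -0.18 (0.38), and in the BBSome list Trim32 at 0.35 (0.0832) and the subunit Ttc8 at 0.22 (0.304). In the light chain list they were Dynlrb1 at 0.27 (0.144) and Dynlt1b at -0.23 (0.217), and in the cytoplasmic list the intermediate chain Dync1i1 at 0.35 (0.119) and the heavy chain Dync1h1 at 0.18 (0.32). Ccdc40, a ruler protein, had a log2 change of 0.19 (0.278). Levels of the elongating spermatid markers moved in the same direction as Armc4, Bbs5, Dnahc3 and the lower list genes, and their part in these results was not tested.

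**Figure D4:**
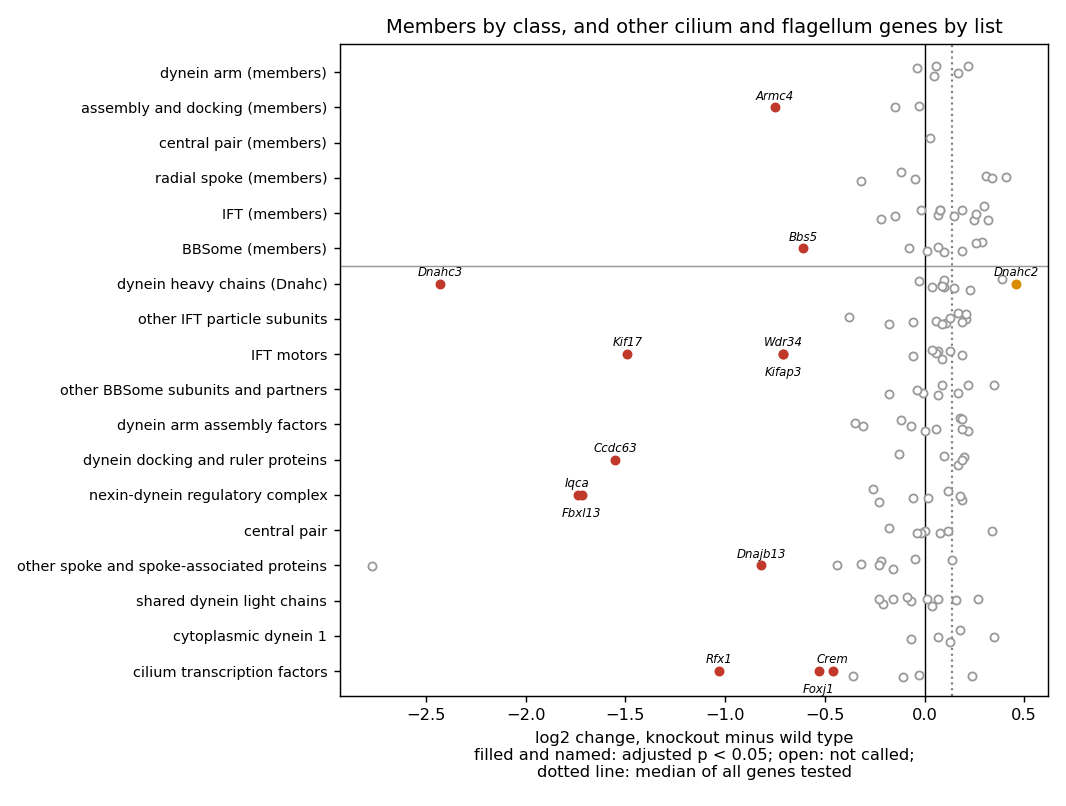
Log2 change, knockout minus wild type, of the tested members by class, above the line, and of other cilium and flagellum genes by list, below it, with 1 point a gene. Filled and named points passed an adjusted p of 0.05, and the dotted line is the median of all genes tested, 0.14. The lowest called point is Dnahc3 at -2.43, the open point further left is Morn3 at -2.77, and the lower members are Armc4 at -0.75 and Bbs5 at -0.61.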

How the data were processed

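The deposited table gives log2 RPKM per gene (corrected for gene length and depth, on a log2 scale), which the authors computed; its genome is mm9 and the tools named are bcl2fastq 2.17.1.14 and Bowtie2, per the submitters' processing notes. What counted the reads, with which annotation, strand setting and filter, is not given in the sources used here. Of 26127 entries, 59 (0.23%) name no gene and were left out. Columns named control and null were matched to the wild type and knockout labels by group and number, and the authors' mean columns were not used. There were no unmapped columns of sample values. Genes without reads carry a floor of 0.883 to 0.895 of a read, so no pseudocount was added.

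Entries with a mean log2 RPKM of at least 0 were tested with limma 3.58.1 (R 4.3.3, statmod 1.5.0, trend and robust estimation, unpaired, two-sided, Benjamini-Hochberg over all genes tested). Folds are differences of mean log2 values. With 2 libraries against 2, the smallest two-sided p of an exact permutation test is 0.333. The calls therefore depend on a spread shared over genes. Depth was estimated from genes of a single exon, whose values up to 10 reads came out whole, within 2%, in 96.1% to 97.8% of cases. Lengths for read estimates came from Gencode M21 by gene identifier. That release is on another build, so only names and lengths were taken from it. Read estimates cover counting only. The code was tested on simulated data.

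Genes named were the called members, in each class the 2 with the smallest p and the 2 with the highest mean, and the other members with their values, and from each list the called genes and those with the smallest p. The members and lists were chosen with earlier results of these data known. List symbols missing from the table were looked up by gene identifier. The alternatives tried were limma with neither trend nor robust estimation, a block for the replicate number, quantile normalization, equal medians of the libraries, log2(RPKM + 1), thresholds of 0.01 and 0.1, no filter or a filter at a mean log2 RPKM of 2, and leaving out each library, which leaves a lone library assumed to vary like the other group.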

Additional observations from a re-analysis of the deposited data

How the results depend on the processing

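The 2 lower members, Armc4 and Bbs5, were both called with a filter at a mean log2 RPKM of 2, log2(RPKM + 1), quantile normalization and equal library medians. Members called lower numbered 1 without a filter, without trend and robust estimation, and at a threshold of 0.01, which left 0 in the BBSome class each time, and 0 to 2 on leaving out each library in turn (0 to 1 in the assembly and docking class and 0 to 1 in the BBSome class). Members called higher were 2 after quantile normalization, both radial spoke genes. For all genes tested, 959 lower and 163 higher became 637 lower with the filter at a mean of 2 (220 higher, 25.7% of calls against 14.5%), 97 higher without a filter, 245 higher after quantile normalization, 624 and 42 at a threshold of 0.01, and 542 higher at 0.1. Leaving out each library gave 0 to 1308 lower and 0 to 494 higher.

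The replicate number as a block gave 1477 lower and 1837 higher genes (55.4% of calls higher), 3 higher members, 1 called radial spoke gene (Rsph10b2, lower), 2 called IFT genes and 2 called BBSome genes, and 2 higher heavy chains. Of the list genes named as not called, it called Ttc26 (adjusted p = 0.00477), Ccdc103 (0.0101), 6030429G01Rik (0.0324) and Morn3 (0.0468) lower, and Trim32 (0.0108), Dync1i1 (0.0229), Ccdc108 (0.0426) and Dynlrb1 (0.0498) higher. The labels do not say that numbers pair libraries. Across genes, the difference between knockout replicates 1 and 2 correlated with that between wild type replicates 1 and 2 at r = 0.331, and with 2 pairs this does not establish a pairing.

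Heavy chains called lower were 0 with the filter at a mean of 2, where Dnahc3 is not tested, and 0 to 1 on leaving out libraries. Heavy chains called higher were 0 without a filter, without trend and robust estimation and at 0.01, and 0 to 2 on leaving out libraries. On leaving out libraries the median change lay between 0.01 and 0.12 for all members, 0.01 and 0.15 for the dynein arm, -0.24 and -0.07 for assembly and docking, 0.0 and 0.25 for the radial spoke, 0.07 and 0.19 for IFT, 0.03 and 0.18 for the BBSome and 0.11 and 0.15 for all genes, which was 0.12 with log2(RPKM + 1). The Adad2 change ranged from -1.26 to -0.84. Single members were followed on leaving out a library only for the 2 of each class with the smallest p and the 2 with the highest mean. Among these, changes near 0 crossed it for Bbs7 (-0.18 to 0.01), Dnali1 (-0.19 to 0.11), Hydin (-0.02 to 0.09), Ift172 (-0.06 to 0.19) and Lrrc50 (-0.18 to 0.12). The other members were not followed in this way. Why settings differ was not tested.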
